A study of Mus musculus with 49 samples.

Results

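Leukaemias driven by the MLL-AF9 fusion (MA9) and started in short-term haematopoietic stem cells (ST-HSC) were compared with those started in multipotent progenitors (MPP), the next step of normal blood differentiation. The comparison used all 3 STHSC:MA9 and all 6 MPP:MA9 samples, 9 of the 49 samples of the series. Genes averaging 1 FPKM or more across these 9 samples were taken, which gave 12048 of the 38253 genes in the table. FPKM is the number of fragments assigned to a gene, per unit of transcript length and of library size, and levels are given on this scale.

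All mice were labelled C57BL/6J, genotype WT and 6 to 12 weeks old. For STHSC:MA9 and MPP:MA9, sorted stem or progenitor cells had been infected with a retrovirus carrying MLL-AF9 and GFP and placed at once into sublethally irradiated mice, so both groups carried the same oncogene and reporter and were named only for the normal cell infected. Bulk GFP+ cells were sorted from diseased recipients, 1 mouse a sample, and the sort leaves out the host's own GFP-negative blood cells. The methods give the spleen as their source, whereas the tissue label reads Bone Marrow. Normal ST-HSC (5 samples) and MPP (6 samples), sorted from bone marrow and carrying no virus, served as a comparison of the same 2 cell types without the oncogene. RNA of all groups was amplified as cDNA before the libraries were made, and the labels name no library batch.

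MLL-AF9 joins the amino-terminal part of the chromatin regulator MLL to AF9, a member of the complexes that release paused RNA polymerase and recruit the histone methyltransferase DOT1L. Leukaemias that carry it keep HOXA genes and Meis1 on and stop at an immature myeloid stage. ST-HSC and MPP lie next to each other in the haematopoietic tree, with ST-HSC still able to self-renew for a limited time and MPP already primed for lineage choice.

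The libraries of the groups differed before any gene was considered. STHSC:MA9 samples held 16172 ± 153 genes above 0 (SD, n = 3) and MPP:MA9 samples 16578 ± 95.4 (SD, n = 6), without overlap (exact permutation test, two-sided, p = 0.0119, adjusted p = 0.0238 over 4 measures). Total reads were unknown, but the steps between low FPKM values gave depths relative to the median sample of 0.612, 0.652 and 0.934 in STHSC:MA9 and from 0.884 to 1.32 in MPP:MA9 (exact permutation test, two-sided, p = 0.0238, adjusted p = 0.0317). The difference in depth did not pass without MPP:MA9 replicate 1, 3, 4 or 6 (exact permutation test, adjusted p = 0.0714 each) or without STHSC:MA9 replicate 1 or 2 (adjusted p = 0.143 and 0.0952). Mitochondrial transcripts took 18.0 ± 1.72% of the summed FPKM in STHSC:MA9 (SD, n = 3) and 15.9 ± 2.22% in MPP:MA9 (SD, n = 6; exact permutation test, two-sided, p = 0.179, adjusted p = 0.179). Pairwise correlations of log2(FPKM + 1) across genes were 0.926 to 0.969 within STHSC:MA9, 0.907 to 0.965 within MPP:MA9 and 0.888 to 0.948 between the groups (3, 15 and 18 pairs).

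The deviation of a gene from its mean followed its exon GC content differently in the groups. Deviations were taken from the mean over both groups, so any difference gives group means of opposite sign, and only the difference is informative. Per 10 points of GC percent, the slope on the log2 scale was -0.285, -0.255 and -0.217 in STHSC:MA9 replicates 1, 2 and 3, and it lay between 0.0999 and 0.179 in MPP:MA9 (exact permutation test, two-sided, p = 0.0119, adjusted p = 0.0238). With 3 samples against 6, 0.0119 is the smallest p this test can give. Among the 1159 genes of lowest GC content the median log2 change, STHSC:MA9 minus MPP:MA9, was 0.21, and among the 1159 of highest GC content it was -0.57. Normal ST-HSC against MPP gave 0.13 and -0.46 for the same genes. The comparison is therefore given as deposited and again after a smooth trend on GC content and length had been removed from each sample, which left the genes of lowest and highest GC content at 0.02 and -0.02. The correction also takes out any change between the cells that follows GC content, and trend and change cannot be told apart.

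**Figure D1:**
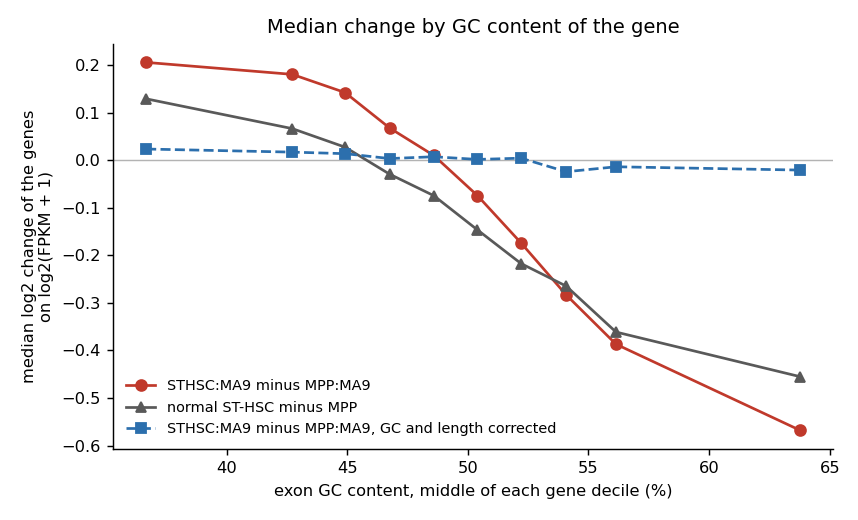
Median log2 change of genes in 10 equal groups by exon GC content (x axis, percent at the middle of each group; y axis, median change on log2(FPKM + 1)). The STHSC:MA9 minus MPP:MA9 line falls from 0.21 to -0.57, normal ST-HSC minus MPP from 0.13 to -0.46, and the corrected line stays between -0.02 and 0.02.

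Transcripts of the kidney also divided the samples. Kap (ENSMUSG00000032758, chromosome 6, 133799873 to 133803685; NCBIM37 coordinates here and below), an androgen-regulated protein of the proximal tubule, was at 3.29, 5.56 and 3.46 FPKM in STHSC:MA9 replicates 1, 2 and 3 and was listed at 0 in all 6 MPP:MA9 samples. Umod (uromodulin) was at 0.11, 0.26 and 0.07 FPKM and Cyp4b1, a cytochrome P450, at 0.46, 1.04 and 0.33 FPKM in STHSC:MA9, and both were listed at 0 in MPP:MA9. Of 19 kidney genes, a list written after Kap had been seen, 15 to 17 were above 0 in each STHSC:MA9 sample and 4 or 5 in each MPP:MA9 sample. Their summed level was 6.31 to 9.69 FPKM in STHSC:MA9 and 0.10 to 0.71 FPKM in MPP:MA9.

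The same kidney transcripts were found in 3 normal groups, at 6.37 to 17.8 FPKM in LT-HSC, 6.90 to 18.1 FPKM in ST-HSC and 5.25 to 11.6 FPKM in MEP (megakaryocyte-erythrocyte progenitors). They were low in the other groups, with at most 0.72 FPKM in MPP, 0.76 FPKM in CMP, 0.25 FPKM in GMP, 0.50 FPKM in CMP:MA9 and 0.58 FPKM in GMP:MA9. Over the whole table exactly 4 genes, Kap, Umod, Pck1 and Mep1a, were above 0 in all 17 samples of STHSC:MA9, LT-HSC, ST-HSC and MEP and at 0 in all 32 others, and 0 genes had the opposite pattern. The sum of a list of 10 liver genes did not divide the groups in this way, with 0.41 to 1.69 FPKM in STHSC:MA9 and 0.36 to 0.85 FPKM in MPP:MA9. Its member Ttr was above 0 in every STHSC:MA9 (0.08 to 0.24 FPKM) and MEP sample and in 3 samples each of LT-HSC and ST-HSC. Ttr was listed at 0 in all samples of the other 6 groups. Cell of origin and the division of the libraries by these transcripts cannot be told apart in the comparisons below, and their part in the results for other genes was not tested.

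**Figure D2:**
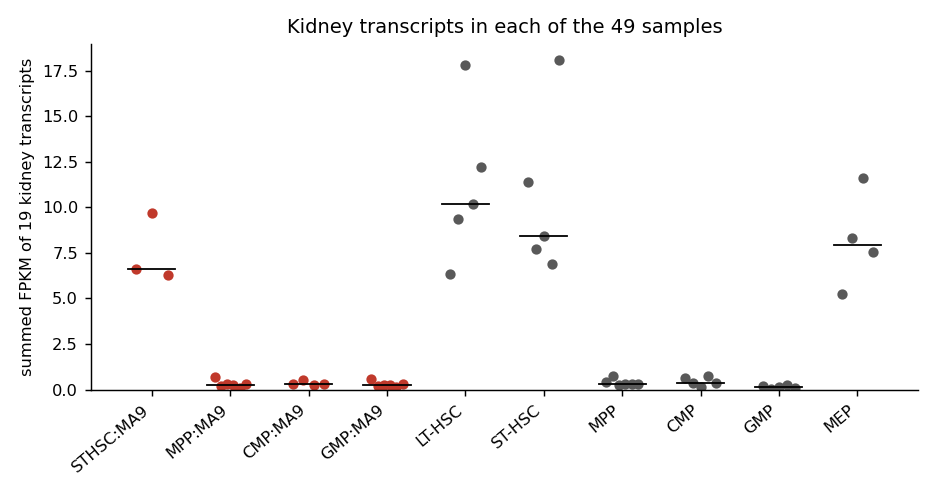
Summed FPKM of 19 kidney transcripts (y axis) in each of the 49 samples by group (x axis); points are samples, bars medians, red leukaemias and grey normal cells. STHSC:MA9 (6.31 to 9.69), LT-HSC, ST-HSC and MEP lie above 5 FPKM and the other 6 groups below 1.

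A gene was called when the limma adjusted p was below 0.05 and the log2 change above 1 or below -1, on log2(FPKM + 1), a scale that understates changes of low genes. By this rule 346 genes were called (2.87% of those tested), 50 higher in STHSC:MA9 (0.415%) and 296 lower (2.46%). Of the 50, 9 had values identical to those of another tested gene. With identical rows counted once, 43 were higher and 296 lower. At any fold 1226 genes passed the adjusted p (10.2%), 247 higher (2.05%) and 979 lower (8.13%). The groups did not overlap for 308 of the called genes, and for 17.6% of all genes tested (4.95% with STHSC:MA9 above, 12.7% below). The median exon GC content was 45.5% for genes called higher, 56.3% for those called lower and 49.3% for the rest. Of the genes called lower, 121 lay among the 1159 of highest GC content and 5 among the 1159 of lowest.

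After the GC and length correction 18 of 11589 genes were called (0.155%), 3 higher and 15 lower. All 35 genes called higher and all 289 called lower that had a GC value kept their direction after it. Calls need a log2 change beyond 1, and the medians by GC content ran only from 0.21 to -0.57. Kept directions therefore say little about whether the calls hold. Of the 18, 14 were also called as deposited, 1 higher and 13 lower. The number rested on single libraries: without STHSC:MA9 replicate 1 it was 617 as deposited and 303 corrected, of which 128 were among the 346. Without STHSC:MA9 replicate 2, STHSC:MA9 replicate 3 or MPP:MA9 replicate 3 it was 146, 126 and 229 as deposited, and leaving out any sample other than STHSC:MA9 replicate 1 gave between 1 and 30 corrected calls. Replicate 1 of STHSC:MA9 was at 37.2 FPKM for Myb, a progenitor transcription factor, against 183 and 158 in the other STHSC:MA9 samples, and at 6.33 FPKM for Gfi1, a granulocyte factor, against 49.03 and 34.22. The cause was not tested.

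Among the 14 genes called both as deposited and corrected, 9 shared under 20% of their 31-base windows with another gene. Windows were compared only among exons of annotated genes. Matches elsewhere in the genome, also for the pseudogene AY036118 among the 9, were not tested. Below, STHSC:MA9 values stand in the order of replicates 1, 2 and 3, and MPP:MA9 values as the lowest, the highest and the median. Kap, above, was the gene called higher, and no fold is given against a group listed at 0. The other 8 were lower in STHSC:MA9. All 9 were still called as deposited when any single MPP:MA9 sample or STHSC:MA9 replicate 1 was left out. Prdx1 lost the call without STHSC:MA9 replicate 2 and without replicate 3. Kap, listed at 0 in MPP:MA9, averaged below 1 FPKM without STHSC:MA9 replicate 2 and was not tested there, as deposited or corrected. After the correction the number called was 2, 9, 0, 3, 4 and 1 of 9 without MPP:MA9 replicates 1 to 6, and 8, 0 and 0 without STHSC:MA9 replicates 1 to 3.

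Cd74 (ENSMUSG00000024610, chromosome 18, 60963502 to 60972300), the invariant chain that guards the peptide groove of MHC class II molecules, was at 9.44, 17.1 and 10.98 FPKM in STHSC:MA9 and at 34.5 to 147 FPKM in MPP:MA9, median 94.7. Every STHSC:MA9 sample lay below every MPP:MA9 sample. The difference was larger than the spread within either group (log2 change -2.75, SE 0.39, limma adjusted p = 0.00517; corrected -2.41, limma adjusted p = 0.0397). In a fit of all 19 leukaemias, whose groups share the estimate of spread, the change did not pass (limma adjusted p = 0.0699, corrected 0.194). CMP:MA9 ranged from 32.5 to 272 FPKM, above all STHSC:MA9 samples, and GMP:MA9 from 13.0 to 473 FPKM.

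AY036118 (ENSMUSG00000045999, chromosome 17, 39985048 to 39985772), annotated as a pseudogene, was at 1.3, 1.21 and 1.92 FPKM in STHSC:MA9 and at 8.46 to 12.6 FPKM in MPP:MA9, median 9.84 (log2 change -2.18, SE 0.17, limma adjusted p = 0.000430; corrected -1.33, limma adjusted p = 0.0252). Its exons have a GC content of 68.5%. The groups were apart by more than the spread within either, and normal ST-HSC were also below normal MPP, at 2.63 to 5.15 and 6.25 to 16.7 FPKM (log2 change -1.17, limma adjusted p = 0.00408), a call that was lost on correction (-0.46, limma adjusted p = 0.187).

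Rgs3 (ENSMUSG00000059810, chromosome 4, 62220881 to 62364052), which speeds GTP hydrolysis by G-protein alpha subunits, was at 9.43, 3.26 and 7.1 FPKM in STHSC:MA9 and at 21.6 to 30.9 FPKM in MPP:MA9, median 27.5 (log2 change -1.95, SE 0.25, limma adjusted p = 0.00380; corrected -1.55, limma adjusted p = 0.0389). Fgd2 (ENSMUSG00000024013, chromosome 17, 29497859 to 29516605), an exchange factor for Cdc42, was at 6.74, 7.49 and 8.96 FPKM in STHSC:MA9 and at 17.7 to 30.9 FPKM in MPP:MA9, median 22.7 (log2 change -1.48, SE 0.17, limma adjusted p = 0.00231; corrected -1.03, limma adjusted p = 0.0336). For both genes the highest STHSC:MA9 sample stayed below the lowest MPP:MA9 sample. In Fgd2 the normal cells were divided as well, at 3.69 to 8.66 FPKM in ST-HSC and 12.4 to 20.6 FPKM in MPP (log2 change -1.34, limma adjusted p = 0.000601; corrected -0.95, limma adjusted p = 0.00423). Without STHSC:MA9 replicate 1 the corrected change of Fgd2 between the leukaemias was -0.97, below the fold threshold.

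Snx20 (ENSMUSG00000031662, chromosome 8, 91150727 to 91160027), a sorting nexin that binds the selectin ligand PSGL-1, was at 4.3, 3.22 and 3.22 FPKM in STHSC:MA9 and at 12.1 to 17.1 FPKM in MPP:MA9, median 13.6 (log2 change -1.70, SE 0.15, limma adjusted p = 0.000786; corrected -1.07, limma adjusted p = 0.0336). Eif4ebp2 (ENSMUSG00000020091, chromosome 10, 60895245 to 60915417), which holds back cap-dependent translation by binding eIF4E, was at 61.9, 46.03 and 39.6 FPKM in STHSC:MA9 and at 112 to 179 FPKM in MPP:MA9, median 132 (log2 change -1.46, SE 0.17, limma adjusted p = 0.00245; corrected -1.20, limma adjusted p = 0.0383). Neither gene overlapped between the groups, and Snx20 was also lower in normal ST-HSC than in normal MPP as deposited (log2 change -1.10, limma adjusted p = 0.00189) but not after the correction (-0.52, limma adjusted p = 0.0507).

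Prdx1 (ENSMUSG00000028691, chromosome 4, 116358149 to 116373427), a peroxiredoxin that removes hydrogen peroxide, was at 75.2, 47.2 and 42.4 FPKM in STHSC:MA9 and at 97.97 to 172 FPKM in MPP:MA9, median 132 (log2 change -1.28, SE 0.22, limma adjusted p = 0.00947; corrected -1.47, limma adjusted p = 0.0336). Nceh1 (ENSMUSG00000027698, chromosome 3, 27081887 to 27183530), a cholesterol ester hydrolase of macrophages, was at 14.7, 11.9 and 9.14 FPKM in STHSC:MA9 and at 23.4 to 33.4 FPKM in MPP:MA9, median 28.1 (log2 change -1.18, SE 0.16, limma adjusted p = 0.00517; corrected -1.26, limma adjusted p = 0.0252). Both have exons of low GC content, 42.7% and 44.6%, among genes whose median change was 0.18 and 0.14, so they went against the trend. In normal cells neither difference passed the test, with log2 changes of -0.33 and -0.31 (limma adjusted p = 0.0702 and 0.206).

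**Figure D3:**
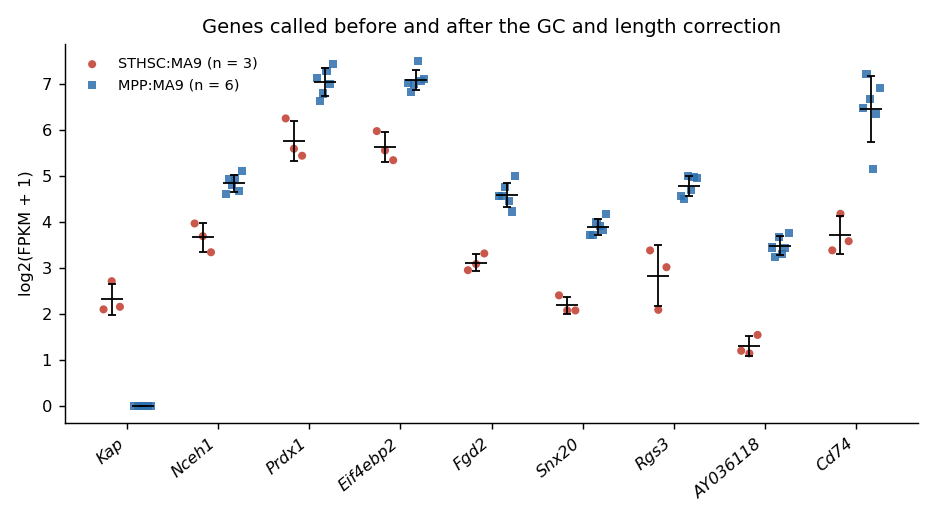
The 9 genes called as deposited and after the GC and length correction, by sample (y axis, log2(FPKM + 1)); points are samples, bars the mean and SD of STHSC:MA9 (n = 3) and MPP:MA9 (n = 6). Kap lies above 0 only in STHSC:MA9, and in the other 8 genes every STHSC:MA9 point is below every MPP:MA9 point.

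The remaining 5 of the 14 share more sequence with other genes, and their FPKM are uncertain. Atp5g2, a subunit of the ATP synthase ring with 64.6% of its windows shared, was listed at 0 in all 3 STHSC:MA9 samples and in all 6 GMP:MA9 samples, and was at 8.63 to 31.6 FPKM in MPP:MA9. Rps27 (98.2% shared) was at 473, 652 and 597 FPKM in STHSC:MA9 and at 1084 to 1611 FPKM in MPP:MA9, median 1287. Rps27a (27.2% shared) was at 295, 372 and 328 FPKM in STHSC:MA9 and at 501 to 834 FPKM in MPP:MA9, median 683. These genes of the small ribosomal subunit did not overlap between the groups, with corrected changes of -1.13 (limma adjusted p = 0.0383) and -1.13 (limma adjusted p = 0.0252). Without STHSC:MA9 replicate 1 the corrected change of Rps27 was -0.94 and the deposited change of Rps27a was -0.92, both below the fold threshold. The others were Clec4b1, a lectin of dendritic cells (23.5% shared, corrected change -1.86, limma adjusted p = 0.0269) and Gm9846 (74.2% shared, corrected change -1.14, limma adjusted p = 0.0336).

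Another 4 genes were called only after the correction. As deposited they passed the adjusted p but not the fold threshold. Their deposited log2 changes were -0.84 in Mycbp, 0.82 in Snrnp35, -0.93 in Pyhin1 and 0.86 in Gm1821 (limma adjusted p = 0.0154, 0.0240, 0.0122 and 0.0238). Mycbp, a Myc-binding protein, was at 7.02, 10.9 and 9.07 FPKM in STHSC:MA9 and at 13.3 to 20.9 FPKM in MPP:MA9, median 16.7 (corrected change -1.04, limma adjusted p = 0.0383). Snrnp35, a protein of the minor spliceosome, was at 8.68, 10.1 and 9.58 FPKM in STHSC:MA9 and at 3.65 to 6.56 FPKM in MPP:MA9, median 4.87 (corrected change 1.14, limma adjusted p = 0.0269). Pyhin1, an interferon-inducible nuclear protein with 50.5% of its windows shared, changed by -1.12 (limma adjusted p = 0.0382) and Gm1821, 98.3% shared, by 1.23 (limma adjusted p = 0.0269).

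Next came the 3 largest rises and falls called as deposited only, among genes whose groups did not overlap and that shared under 20% of their windows. Vcam1 (ENSMUSG00000027962, chromosome 3, 115812938 to 115832606), an adhesion molecule of endothelium and macrophages, was at 5.32, 63.2 and 22.1 FPKM in STHSC:MA9 and at 0.67 to 4.52 FPKM in MPP:MA9, median 2.26. All STHSC:MA9 samples lay above the MPP:MA9 samples, replicate 1 nearest to them. The change passed as deposited (log2 change 2.71, SE 0.63, limma adjusted p = 0.0272), was 2.57 (limma adjusted p = 0.0847) corrected, and was 3.43 corrected without STHSC:MA9 replicate 1 (limma adjusted p = 0.0132). It did not pass in the fit of all 19 leukaemias (limma adjusted p = 0.0921).

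Slc40a1, the iron exporter ferroportin, was at 8.0, 9.06 and 13.9 FPKM in STHSC:MA9 and at 0.41 to 4.83 FPKM in MPP:MA9, median 2.69 (log2 change 1.81, limma adjusted p = 0.0342; corrected 1.65, limma adjusted p = 0.104), and narrowly missed the threshold in that fit (limma adjusted p = 0.0506). Gm15232, a gene model of unknown role, was at 7.33, 7.39 and 7.24 FPKM in STHSC:MA9 and at 0.51 to 2.43 FPKM in MPP:MA9, median 1.73 (log2 change 1.75, limma adjusted p = 0.00707; corrected 1.52, limma adjusted p = 0.0580). Both were higher in every STHSC:MA9 sample than in any MPP:MA9 sample, which their selection required. Among the falls, Apoe, an apolipoprotein made by macrophages, was at 53.5, 27.04 and 19.4 FPKM in STHSC:MA9 and at 57.9 to 530.2 FPKM in MPP:MA9, median 149 (log2 change -2.22, limma adjusted p = 0.0398; corrected -1.80, limma adjusted p = 0.161). Plxnb2, a semaphorin receptor, was at 20.8, 3.63 and 7.68 FPKM in STHSC:MA9 and at 28.9 to 59.02 FPKM in MPP:MA9, median 37.9 (log2 change -2.08, limma adjusted p = 0.0158; corrected -1.58, limma adjusted p = 0.0941). The corrected change of Plxnb2 was -2.18 without STHSC:MA9 replicate 1 (limma adjusted p = 0.0138). The third fall, H2-Eb1, stands with its list below.

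Genes were then grouped by role. MHC class II molecules present peptides from endocytosed material to CD4+ T cells, and their promoters share a set of boxes read by RFX, CREB and NF-Y factors with the coactivator CIITA. The list is not independent of these samples, since the study itself drew attention to this group in them. Of 9 genes tested, 3 were called lower and 0 higher, where 2.46% of all genes were called lower, and 1 was called after the correction. All 9 had negative values, with a median log2 change of -1.09, or -1.15 corrected, beside -0.07 and 0.00 over all genes tested.

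Besides Cd74, the class II chains H2-Aa and H2-Eb1 were called. H2-Eb1 (ENSMUSG00000060586, chromosome 17, 34442828 to 34453144), a beta chain, was at 0.53, 1.74 and 1.65 FPKM in STHSC:MA9 and at 2.1 to 20.3 FPKM in MPP:MA9, median 11.5 (log2 change -2.22, limma adjusted p = 0.0251; corrected -2.005, limma adjusted p = 0.0893). H2-Aa (ENSMUSG00000036594, chromosome 17, 34406276 to 34424772), an alpha chain, was at 4.63, 15.4 and 12.2 FPKM in STHSC:MA9 and at 15.3 to 80.96 FPKM in MPP:MA9, median 56.3 (log2 change -2.19, limma adjusted p = 0.0235; corrected -2.21, limma adjusted p = 0.0667). The groups met in H2-Aa, whose highest STHSC:MA9 sample lay just above the lowest MPP:MA9 sample. Without STHSC:MA9 replicate 1 neither gene passed as deposited (limma adjusted p = 0.0559 and 0.0525), and neither did in the fit of all 19 leukaemias (limma adjusted p = 0.112 and 0.138).

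The exchange factors and the partner chain had smaller values. H2-DMb1, which helps load peptides, was at 34.9, 30.9 and 31.9 FPKM in STHSC:MA9 and at 40.6 to 63.1 FPKM in MPP:MA9, median 50.6, and passed the adjusted p at a smaller size (log2 change -0.62, limma adjusted p = 0.0357; corrected -0.45, limma adjusted p = 0.150), with 36.04% of its windows shared. H2-Ab1, the beta chain that pairs with H2-Aa, was at 6.55, 14.3 and 15.2 FPKM in STHSC:MA9 and at 12.9 to 32.5 FPKM in MPP:MA9, median 23.1 (log2 change -0.86, limma adjusted p = 0.120; corrected -0.63, limma adjusted p = 0.293). H2-DMa was at 62.1, 61.8 and 73.9 FPKM in STHSC:MA9 and at 50.2 to 143 FPKM in MPP:MA9, median 111 (log2 change -0.57, limma adjusted p = 0.232; corrected -0.29, limma adjusted p = 0.575). H2-Ab1 and H2-DMa did not pass, which does not show that they were equal.

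The promoters of class II genes are shown because members of this list had negative values together and most windows hold a CCAAT box. Below are the 150 bases before the RefSeq start of the called genes H2-Aa and H2-Eb1 and of the less changed H2-DMb1, read 5′ to 3′ on the gene's strand, build GRCm38.p6, at chr17:34287824-34287973 (minus strand), chr17:34305717-34305866 (plus strand) and chr17:34153041-34153190 (plus strand). Capitals mark CCAAT or its reverse complement ATTGG.
H2-Aa: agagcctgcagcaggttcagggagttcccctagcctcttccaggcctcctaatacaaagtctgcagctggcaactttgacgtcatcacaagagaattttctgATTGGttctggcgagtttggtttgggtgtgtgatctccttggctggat
H2-Eb1: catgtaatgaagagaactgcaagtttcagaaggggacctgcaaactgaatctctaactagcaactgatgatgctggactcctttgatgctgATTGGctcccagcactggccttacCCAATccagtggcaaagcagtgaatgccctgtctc
H2-DMb1: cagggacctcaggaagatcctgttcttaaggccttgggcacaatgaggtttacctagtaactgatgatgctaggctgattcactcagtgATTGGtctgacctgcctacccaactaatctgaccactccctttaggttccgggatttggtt
Counted from the start, ATTGG began at -48 in H2-Aa, -59 in H2-Eb1 and -61 in H2-DMb1, and H2-Eb1 held CCAAT nearer the start as well. Of 9 promoter windows examined, from 8 class II genes, 7 held the motif on either strand, against 24.5% of 32851 promoters. The 2 windows without it belong to H2-DMa. Cd74, the class II gene called after the correction, and H2-Ab1 had no window among the 9. The count therefore does not cover the whole list. A match is a description of the letters and not a site.

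**Figure D4:**
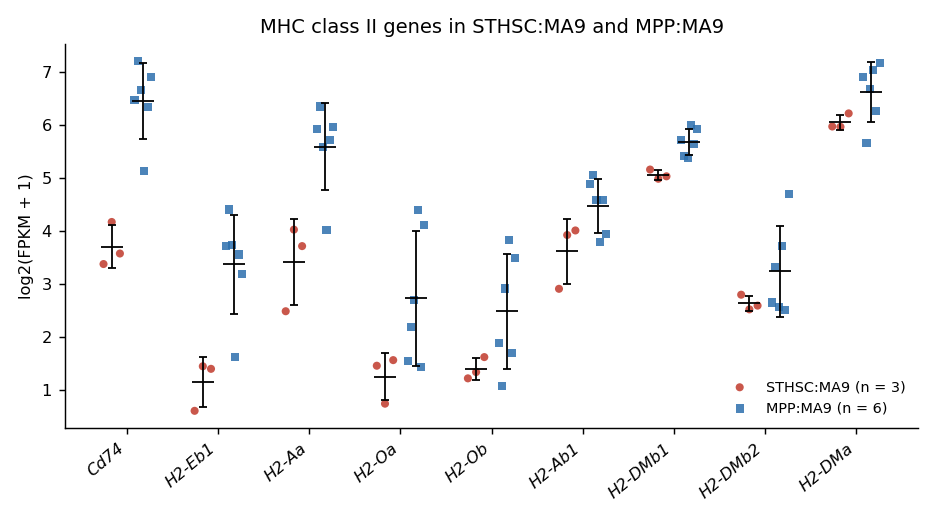
The 9 tested MHC class II genes by sample (y axis, log2(FPKM + 1)); points are samples, bars the mean and SD of STHSC:MA9 (n = 3) and MPP:MA9 (n = 6). The means lie farthest apart in Cd74, H2-Eb1 and H2-Aa, and the ranges are apart in Cd74, H2-Eb1 and H2-DMb1.

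Of 14 transcription factors of the myeloid lineage tested, 4 were called lower in STHSC:MA9 and 0 higher as deposited (2.46% and 0.415% of all genes), and 0 after the correction (0.155% of all genes), with a median log2 change of -0.73 as deposited and -0.20 corrected. Irf8 (ENSMUSG00000041515, chromosome 8, 123260258 to 123280594), which steers progenitors to monocytes and dendritic cells, was at 51.9, 24.9 and 40.7 FPKM in STHSC:MA9 and at 75.4 to 179.6 FPKM in MPP:MA9, median 117 (log2 change -1.62, limma adjusted p = 0.0167; corrected -1.37, limma adjusted p = 0.0826). Klf4, a monocyte factor, was at 27.2, 5.64 and 8.86 FPKM in STHSC:MA9 and at 24.2 to 44.03 FPKM in MPP:MA9, median 36.7 (log2 change -1.54, limma adjusted p = 0.0335; corrected -1.22, limma adjusted p = 0.136). Cbfa2t3, a corepressor of the ETO family, was at 7.16, 10.3 and 8.06 FPKM in STHSC:MA9 and at 12.7 to 43.8 FPKM in MPP:MA9, median 21.2 (log2 change -1.38, limma adjusted p = 0.0288; corrected -0.85, limma adjusted p = 0.158). Irf8 and Cbfa2t3 did not overlap between the groups, and Klf4 did. The other called member was Sfpi1, which codes for PU.1 (log2 change -1.003, limma adjusted p = 0.00335; corrected -0.65, limma adjusted p = 0.0784). Without STHSC:MA9 replicate 1, Irf8 and Klf4 passed after the correction (limma adjusted p = 0.0380 and 0.00996), while Cbfa2t3 did not pass as deposited (limma adjusted p = 0.0589). Cebpa, which starts granulocyte development, was at 16.5, 11.7 and 10.6 FPKM in STHSC:MA9 and at 11.4 to 18.2 FPKM in MPP:MA9, median 15.9, and did not pass (log2 change -0.23, limma adjusted p = 0.422; corrected 0.45, limma adjusted p = 0.262).

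Of 21 receptors for cytokines tested, 3 were called lower (2.46% of all genes) and 0 higher, 0 after the correction, and 19 had negative values (median log2 change -0.69, corrected -0.31). Il6ra, the interleukin-6 receptor, was at 56.99, 15.9 and 20.8 FPKM in STHSC:MA9 and at 63.7 to 94.3 FPKM in MPP:MA9, median 77.7 (log2 change -1.48, limma adjusted p = 0.0230; corrected -1.27, limma adjusted p = 0.101). Il10ra was at 12.6, 3.72 and 7.32 FPKM in STHSC:MA9 and at 14.3 to 24.2 FPKM in MPP:MA9, median 16.1 (log2 change -1.15, limma adjusted p = 0.0343; corrected -0.93, limma adjusted p = 0.136). Il17ra was at 88.7, 38.4 and 46.1 FPKM in STHSC:MA9 and at 92.7 to 150.5 FPKM in MPP:MA9, median 111 (log2 change -1.06, limma adjusted p = 0.0258; corrected -0.70, limma adjusted p = 0.179). None of these 3 overlapped between the groups. Csf1r, the macrophage colony-stimulating factor receptor, was at 78.2, 28.99 and 57.5 FPKM in STHSC:MA9 and at 67 to 122 FPKM in MPP:MA9, median 101, and did not pass (log2 change -0.93, limma adjusted p = 0.0602; corrected -0.59, limma adjusted p = 0.259).

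In the Toll-like receptor pathway, which senses microbial products, 3 of 22 genes were called lower (2.46% of all genes), 0 higher and 0 after the correction (median log2 change -0.41, corrected -0.36). Tlr9, the endosomal sensor of CpG DNA, was at 11.2, 5.71 and 8.35 FPKM in STHSC:MA9 and at 13.8 to 43.6 FPKM in MPP:MA9, median 22.6 (log2 change -1.47, limma adjusted p = 0.0233; corrected -1.08, limma adjusted p = 0.116). Ticam1, the TRIF adaptor, was at 7.75, 8.79 and 10.8 FPKM in STHSC:MA9 and at 16.2 to 25.7 FPKM in MPP:MA9, median 21.01 (log2 change -1.13, limma adjusted p = 0.00574; corrected -0.74, limma adjusted p = 0.0826). Unc93b1, which carries nucleic-acid sensing receptors to endosomes, was at 66.9, 57.5 and 80.1 FPKM in STHSC:MA9 and at 116 to 199 FPKM in MPP:MA9, median 137 (log2 change -1.07, limma adjusted p = 0.00838; corrected -0.64, limma adjusted p = 0.0835). The groups did not overlap in any of these. Among interferon response genes 1 of 17 was called, Irf7, an interferon-induced activator, at 3.62, 1.82 and 3.33 FPKM in STHSC:MA9 and at 7.02 to 14.4 FPKM in MPP:MA9, median 8.65 (log2 change -1.39, limma adjusted p = 0.00920; corrected -1.08, limma adjusted p = 0.0667), and the median was -0.59 (corrected -0.38). Among MHC class I genes 1 of 15 was called, the immunoproteasome subunit Psmb10, at 31.6, 25.8 and 29.5 FPKM in STHSC:MA9 and at 35.2 to 75.2 FPKM in MPP:MA9, median 63.5 (log2 change -1.005, limma adjusted p = 0.0230; corrected -0.67, limma adjusted p = 0.124), with a median of -0.54 (corrected -0.29).

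Markers of mature cell types tell which cells the GFP+ bulk could hold. Of 10 monocyte and macrophage markers tested, 3 were called lower (Ly6c1, Ccr2 and Ly6c2) and 1 higher (Vcam1), beside 2.46% and 0.415% of all genes. The summed level of the markers was 802 to 1384 FPKM in STHSC:MA9 and 1472 to 2291 FPKM in MPP:MA9, without overlap. None was called after the correction, and the median log2 change was -0.94, or -0.58 corrected. Ccr2, the chemokine receptor of inflammatory monocytes, was at 76.8, 40.1 and 65.1 FPKM in STHSC:MA9 and at 91.8 to 176 FPKM in MPP:MA9, median 144 (log2 change -1.17, limma adjusted p = 0.0212; corrected -1.31, limma adjusted p = 0.0609), and did not pass in the fit of all 19 leukaemias (limma adjusted p = 0.119). Ly6c1 was at 27.3, 13.3 and 11.99 FPKM in STHSC:MA9 and at 30.1 to 63.1 FPKM in MPP:MA9, median 47.4 (log2 change -1.41, limma adjusted p = 0.0158; corrected -1.44, limma adjusted p = 0.0660), with 51.7% of its windows shared. Ly6c2 was at 735, 356 and 442 FPKM in STHSC:MA9 and at 753 to 1394 FPKM in MPP:MA9, median 1148 (log2 change -1.12, limma adjusted p = 0.0329; corrected -1.13, limma adjusted p = 0.0924), with 53.5% shared, and made up much of the sum. Dendritic markers summed to 125 to 144 FPKM in STHSC:MA9 and 223 to 663 FPKM in MPP:MA9, and Irf8 was the member called of 7. In bulk samples fewer cells of a type and less RNA per cell cannot be told apart, and the part of these markers in the MHC class II values was not tested.

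Granulocyte genes were high and varied widely in both groups. Of 13 late granulocyte markers 0 were called, 12 had positive values and the median log2 change was 1.67, while their sum ran from 20985 to 48570 FPKM in STHSC:MA9 and from 1299 to 65208 FPKM in MPP:MA9. Retnlg, a resistin-like protein of neutrophils, was at 537, 259 and 637 FPKM in STHSC:MA9 and at 4.74 to 562 FPKM in MPP:MA9, median 100.5 (log2 change 2.53, limma adjusted p = 0.174; corrected 2.37, limma adjusted p = 0.279). Camp, the cathelicidin of secondary granules, was at 817, 1177 and 2526 FPKM in STHSC:MA9 and at 21.3 to 2318 FPKM in MPP:MA9, median 310.3 (log2 change 2.14, limma adjusted p = 0.267; corrected 2.29, limma adjusted p = 0.309). Of 7 primary granule genes 0 were called, with a median of 0.85. Ms4a3, a membrane protein of granulocyte progenitors, was at 13.3, 205 and 195 FPKM in STHSC:MA9 and at 0.22 to 83.3 FPKM in MPP:MA9, median 30.5 (log2 change 2.23, limma adjusted p = 0.281; corrected 1.98, limma adjusted p = 0.409). Ctsg, cathepsin G, was at 137, 831 and 555 FPKM in STHSC:MA9 and at 20.4 to 313 FPKM in MPP:MA9, median 197 (log2 change 1.52, limma adjusted p = 0.260; corrected 1.57, limma adjusted p = 0.301). Itgam, the CD11b integrin chain that marks myeloid cells, was at 248.5 to 285 FPKM in STHSC:MA9 and 215 to 536 FPKM in MPP:MA9.

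Other lineages gave few calls, where 0.415% of all genes were called higher and 2.46% lower. Of 3 tested B cell markers 0 were called, their sum was 63.5 to 158 FPKM in STHSC:MA9 and 75.9 to 454 FPKM in MPP:MA9, and Pax5, which defines the lineage, was listed at 0 in all 9 samples. Ighm, the IgM heavy chain, was at 47.03 to 133 FPKM in STHSC:MA9 and 59.9 to 381 FPKM in MPP:MA9. Cd22, a B cell lectin, was at 0.44 to 0.47 FPKM in STHSC:MA9 and 1.22 to 7.9 FPKM in MPP:MA9. T and NK cell markers summed to 6.11 to 16.2 FPKM and 3.63 to 44.5 FPKM, with 0 of 2 called. Cd2 was at 0 to 2.46 FPKM in STHSC:MA9 and 0.95 to 3.41 FPKM in MPP:MA9, and Nkg7, a granule protein, at 3.1 to 15.4 FPKM in STHSC:MA9 and 0.41 to 23.5 FPKM in MPP:MA9. Of 8 erythroid markers 0 were called, and of 3 megakaryocyte markers 0. The globins Hba-a1 (log2 change -1.47, limma adjusted p = 0.331) and Hbb-b2 (log2 change -0.85, limma adjusted p = 0.628) and the platelet genes Gp9 (log2 change -0.41, limma adjusted p = 0.694) and F2rl2 (log2 change -0.01, limma adjusted p = 0.990) did not pass. Hdc, the histamine-forming enzyme, was the member called of 6 mast cell, basophil and eosinophil markers, at 24.4, 13.7 and 39.6 FPKM in STHSC:MA9 and at 4.01 to 19.1 FPKM in MPP:MA9, median 6.46 (log2 change 1.58, limma adjusted p = 0.0441; corrected 1.65, limma adjusted p = 0.0941). Acta2, smooth muscle actin, was the member called of 3 stromal markers, at 6.92, 4.55 and 7.51 FPKM in STHSC:MA9 and at 0.40 to 3.23 FPKM in MPP:MA9, median 1.79 (log2 change 1.48, limma adjusted p = 0.0270; corrected 1.43, limma adjusted p = 0.0826). Both lost the call without STHSC:MA9 replicate 1 (limma adjusted p = 0.0756 and 0.0532), and Hdc also in the fit of all 19 leukaemias (limma adjusted p = 0.229).

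Genes of replication and mitosis had the highest median of the lists that are not cell markers. Of 32 tested, 28 had positive values, the median log2 change was 0.46 and it was 0.47 corrected, so the correction did not lower it. Cenpf, a kinetochore protein, was the member called, at 21.5, 26.8 and 24.1 FPKM in STHSC:MA9 and at 6.63 to 18.7 FPKM in MPP:MA9, median 9.66 (log2 change 1.11, limma adjusted p = 0.0372; corrected 0.95, limma adjusted p = 0.118). Over all genes 0.415% were called higher. At any fold 4 genes of the list passed the adjusted p against 2.05% of all genes in this direction. Mki67, the proliferation marker Ki-67, was at 151, 147 and 138 FPKM in STHSC:MA9 and at 54.9 to 108 FPKM in MPP:MA9, median 82.7 (log2 change 0.83, limma adjusted p = 0.0266; corrected 0.78, limma adjusted p = 0.0835). All 3 STHSC:MA9 samples exceeded the highest MPP:MA9 sample for Mki67. Cenpe, a mitotic kinesin, and Tpx2, a spindle assembly factor, had log2 changes of 0.84 and 0.79 (limma adjusted p = 0.0447 and 0.0447). Cenpf did not pass without STHSC:MA9 replicate 1 (limma adjusted p = 0.0504).

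The genes that MLL-AF9 is known to keep on showed no call. Of 15 tested, 0 passed the adjusted p at any fold, and the median log2 change was -0.32 (corrected -0.10). Hoxa9, the central target, was at 14.5, 32.4 and 20.4 FPKM in STHSC:MA9 and at 17.5 to 54 FPKM in MPP:MA9, median 25.99 (log2 change -0.32, limma adjusted p = 0.571; corrected -0.26, limma adjusted p = 0.709). Its cofactor Meis1 was at 36.2, 81.5 and 62.2 FPKM in STHSC:MA9 and at 42.8 to 95.5 FPKM in MPP:MA9, median 52.9 (log2 change 0.04, limma adjusted p = 0.938; corrected -0.06, limma adjusted p = 0.930). Both genes were expressed in all 9 samples and overlapped between the groups. The largest differences in the list were in Flt3, a receptor tyrosine kinase, at 15.02, 3.51 and 1.15 FPKM in STHSC:MA9 and at 6.79 to 107 FPKM in MPP:MA9, median 20.4 (log2 change -2.20, limma adjusted p = 0.0978; corrected -2.09, limma adjusted p = 0.183), and in Pbx3, a homeobox partner of HOX proteins, at 14.9, 10.3 and 6.49 FPKM in STHSC:MA9 and at 5.25 to 59.6 FPKM in MPP:MA9, median 23.8 (log2 change -1.08, limma adjusted p = 0.279; corrected -1.14, limma adjusted p = 0.330). The groups overlapped in both.

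Of 14 genes for MLL fusion partners and the DOT1L complex 0 were called. At any fold 4 were lower (Cdk9, Dot1l, Men1 and Mllt1), against 8.13% of all genes in this direction. The largest change of these was in Mllt1, which codes for ENL, at 2.96, 5.69 and 4.16 FPKM in STHSC:MA9 and at 7.57 to 9.8 FPKM in MPP:MA9, median 8.65 (log2 change -0.90, limma adjusted p = 0.0135; corrected -0.32, limma adjusted p = 0.256). Mllt6 was at 2.02, 1.6 and 0.58 FPKM in STHSC:MA9 and at 2.1 to 6.18 FPKM in MPP:MA9, median 3.05 (log2 change -0.85, limma adjusted p = 0.103; corrected -0.31, limma adjusted p = 0.574). The list median was -0.32 as deposited and -0.13 corrected. Of 13 stem cell transcription factors 0 were called, with a median of -0.07 that became 0.09 corrected. Gata2 was at 0.39, 8.91 and 1.57 FPKM in STHSC:MA9 and at 2.23 to 11.9 FPKM in MPP:MA9, median 9.93 (log2 change -1.30, limma adjusted p = 0.205; corrected -0.81, limma adjusted p = 0.467). Prdm16 was at 3.73, 3.09 and 0.030 FPKM in STHSC:MA9 and at 0 to 4.58 FPKM in MPP:MA9, median 0.030 (log2 change 0.97, limma adjusted p = 0.346; corrected 1.26, limma adjusted p = 0.299). Both transcription factors of stem cells overlapped between the groups. Of 12 surface markers used for sorting 0 were called (median -0.25, corrected -0.27), with Flt3 above and Ly6g, the granulocyte antigen, at 46.5, 17.6 and 108 FPKM in STHSC:MA9 and at 2.51 to 212 FPKM in MPP:MA9, median 19.5 (log2 change 0.99, limma adjusted p = 0.57; corrected 1.05, limma adjusted p = 0.615).

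Of 35 Ras, Rap and Arf regulators 5 were called lower (2.46% of all genes) and 0 after the correction, and the median went from -0.16 to -0.06. Tbc1d10c was at 3.8, 3.93 and 3.67 FPKM in STHSC:MA9 and at 7.0 to 28.9 FPKM in MPP:MA9, median 19.6 (log2 change -1.82, limma adjusted p = 0.0323; corrected -1.40, limma adjusted p = 0.144). Rgl2, an exchange factor for Ral, was at 7.22, 12.6 and 9.84 FPKM in STHSC:MA9 and at 21.7 to 46.4 FPKM in MPP:MA9, median 34.7 (log2 change -1.65, limma adjusted p = 0.00689; corrected -1.05, limma adjusted p = 0.0826). Rasa4, a Ras GTPase-activating protein, was at 9.42, 5.25 and 11.3 FPKM in STHSC:MA9 and at 13.3 to 30.1 FPKM in MPP:MA9, median 24.9 (log2 change -1.39, limma adjusted p = 0.0156; corrected -1.05, limma adjusted p = 0.0901). In these 3 the groups were apart in every sample. Cyth1 and Sipa1l3 were also called (log2 changes -1.09 and -1.04, limma adjusted p = 0.0285 and 0.00809). Tbc1d10c did not pass as deposited without STHSC:MA9 replicate 1 (limma adjusted p = 0.0558).

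Of 32 adhesion and migration genes, Vcam1 was called higher and 2 were called lower, Ccr2 above and Itgb7 (0.415% and 2.46% of all genes). Itgb7, an integrin beta chain, was at 39.2, 19.1 and 27.1 FPKM in STHSC:MA9 and at 46.2 to 125 FPKM in MPP:MA9, median 69.4 (log2 change -1.40, limma adjusted p = 0.0318; corrected -0.93, limma adjusted p = 0.167). The median was -0.27 (corrected -0.26). Of 16 angiogenesis genes 0 were called, with a median of 0.25 (corrected 0.15). Thbs1, thrombospondin, was at 15.4, 31.03 and 31.5 FPKM in STHSC:MA9 and at 0.89 to 33.4 FPKM in MPP:MA9, median 9.87 (log2 change 1.51, limma adjusted p = 0.240; corrected 1.62, limma adjusted p = 0.285). Nrp1, a co-receptor for VEGF, was at 4.76, 2.04 and 3.19 FPKM in STHSC:MA9 and at 4.05 to 11.6 FPKM in MPP:MA9, median 8.95 (log2 change -1.04, limma adjusted p = 0.0733; corrected -1.10, limma adjusted p = 0.118). Both ranges overlapped.

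Lists of survival, growth and degradation genes had single members called, all lower, where 2.46% of all genes were called lower. In the BCL2 family it was Bmf, a BH3-only inducer of apoptosis, 1 of 16, at 8.73, 2.78 and 3.13 FPKM in STHSC:MA9 and at 10.03 to 31.7 FPKM in MPP:MA9, median 16.5 (log2 change -1.77, limma adjusted p = 0.0258; corrected -1.44, limma adjusted p = 0.107). In the Myc network it was Bmyc, 1 of 16, at 13.2, 11.2 and 13.7 FPKM in STHSC:MA9 and at 38.1 to 209 FPKM in MPP:MA9, median 81.8 (log2 change -2.79, limma adjusted p = 0.00838; corrected -2.45, limma adjusted p = 0.0580), with 55.3% of its windows shared. In glycolysis it was the muscle enolase Eno3, 1 of 24, at 11.1, 7.52 and 6.21 FPKM in STHSC:MA9 and at 10.6 to 20.97 FPKM in MPP:MA9, median 18.3 (log2 change -1.01, limma adjusted p = 0.0261; corrected -0.80, limma adjusted p = 0.134). Among cathepsins and lysosomal genes it was the protease Lgmn, 1 of 22, at 7.87, 2.04 and 3.54 FPKM in STHSC:MA9 and at 6.55 to 14.1 FPKM in MPP:MA9, median 10.6 (log2 change -1.18, limma adjusted p = 0.0425; corrected -1.12, limma adjusted p = 0.126). The groups did not overlap for Bmf and Bmyc, and overlapped for Eno3 and Lgmn. Medians were -0.33, -0.20, 0.04 and -0.34 in this order, and -0.11, 0.01, 0.30 and -0.10 corrected.

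Of 29 Polycomb and DNA methylation genes 2 were called, both lower, where 2.46% of all genes were called lower. Cbx7, a Polycomb reader, was at 2.37, 1.78 and 2.03 FPKM in STHSC:MA9 and at 4.08 to 8.16 FPKM in MPP:MA9, median 6.97 (log2 change -1.22, limma adjusted p = 0.0126; corrected -0.75, limma adjusted p = 0.124). Tet3, which oxidises 5-methylcytosine, was at 17.6, 16.6 and 16.4 FPKM in STHSC:MA9 and at 31.9 to 53.4 FPKM in MPP:MA9, median 37.00 (log2 change -1.17, limma adjusted p = 0.00564; corrected -0.92, limma adjusted p = 0.0510). Neither overlapped, and the list median was -0.15 (corrected -0.06). Of 9 long non-coding and nuclear RNAs 0 were called (median -0.09, corrected -0.22), with Mir17hg, host of a miRNA cluster, at 2.61, 6.56 and 2.7 FPKM in STHSC:MA9 and at 6.13 to 48.2 FPKM in MPP:MA9, median 9.22 (log2 change -1.57, limma adjusted p = 0.114; corrected -1.75, limma adjusted p = 0.149). Neat1, the paraspeckle RNA, was at 93.1, 114 and 64.1 FPKM in STHSC:MA9 and at 95.5 to 341 FPKM in MPP:MA9, median 149 (log2 change -0.85, limma adjusted p = 0.128; corrected -0.95, limma adjusted p = 0.156).

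Ribosomal protein genes and nuclear respiratory chain genes had medians near 0. Of 79 ribosomal protein genes 2 were called, the shared-sequence Rps27 and Rps27a above (median -0.08, corrected -0.02), and of 84 nuclear respiratory chain genes 1, Atp5g2 (median -0.02, corrected 0.02). These calls were lower in STHSC:MA9, as were 2.46% of all genes. Of 15 genes encoded in the mitochondrion 0 were called (median -0.14, corrected -0.42), with mt-Rnr1, the small ribosomal RNA, at 53090.4 to 65070.2 FPKM in STHSC:MA9 and 26129 to 41644 FPKM in MPP:MA9 (log2 change 0.80, limma adjusted p = 0.0573; corrected 0.52, limma adjusted p = 0.242) and mt-Nd6 at 74.9 to 125 FPKM in STHSC:MA9 and 46.8 to 88.9 FPKM in MPP:MA9 (log2 change 0.63, limma adjusted p = 0.109; corrected 0.35, limma adjusted p = 0.382). Of 46 histone genes 1 was called, H2afx, the variant marked at DNA breaks, at 63, 59.2 and 55.3 FPKM in STHSC:MA9 and at 73.8 to 176 FPKM in MPP:MA9, median 144 (log2 change -1.13, limma adjusted p = 0.0249; corrected -0.51, limma adjusted p = 0.226). The median of the histone list was -0.08 and turned to 0.25 on correction, its genes having a median GC content of 59.2%.

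**Figure D5:**
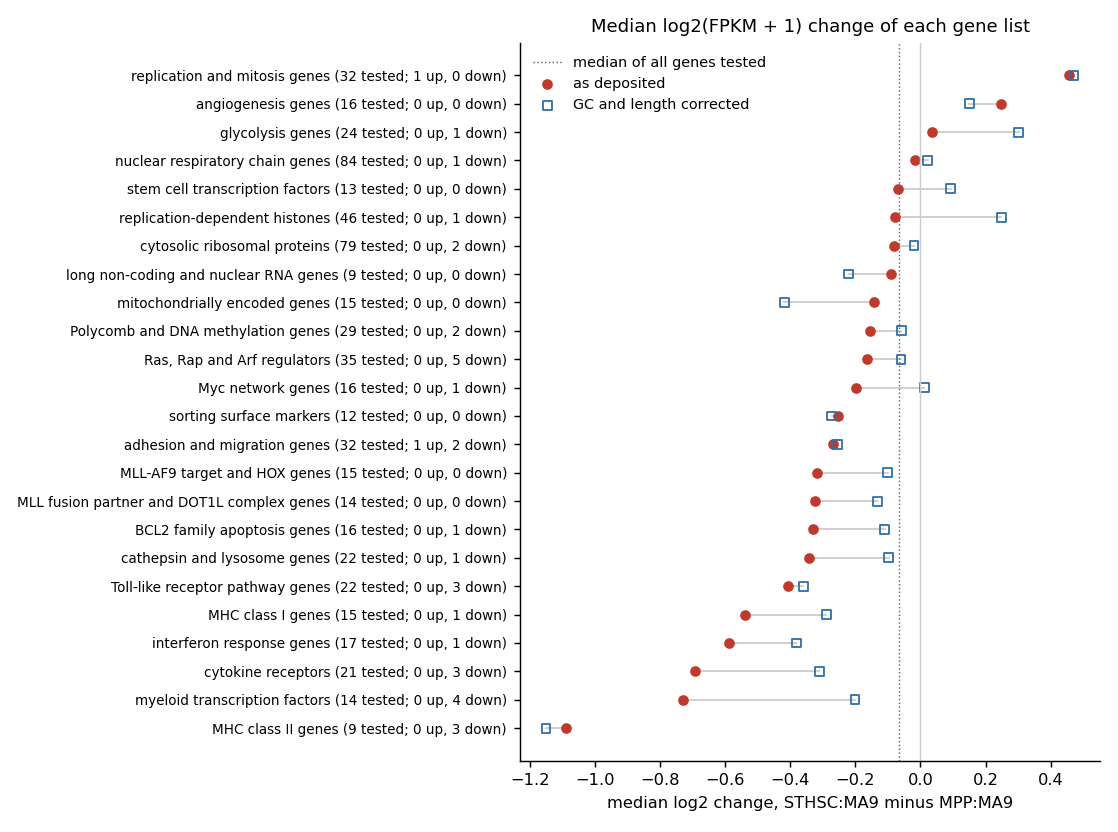
Median log2 change of each gene list that is not a set of cell markers, STHSC:MA9 minus MPP:MA9 (x axis, on log2(FPKM + 1)), as deposited (circles) and after the GC and length correction (squares); the dotted line is the median of all genes tested, -0.07, and labels give the numbers tested and called. Among these lists MHC class II genes lie lowest (-1.09 and -1.15) and replication and mitosis genes highest (0.46 and 0.47), while myeloid transcription factors move from -0.73 to -0.20.

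The same 2 cell types without the oncogene were compared to ask which differences were already there. Between normal ST-HSC and MPP 446 of 12606 genes were called (3.54%), 170 higher (1.35%) and 276 lower (2.19%), and 324 after the correction (2.68%). Of the 346 genes called in the leukaemias, 308 were tested in the normal cells, 37 were called there in the same direction and 2 in the opposite one. The 37 make up 10.7% of the leukaemia calls and 8.30% of the normal calls. Of the 33 of them tested in the normal cells after the correction, 15 were still called there, and of 17 genes called after the correction in the leukaemias and tested in both, 3 were called in both (Kap, Rps27 and Rps27a). Those named here include Snx20, Fgd2, AY036118, Irf8, Rasa4, Plxnb2, Bmyc, Unc93b1 and Tbc1d10c, lower as deposited in the ST-HSC-side samples of both comparisons, and Kap, higher in both. In the normal cells Irf8 and Rasa4 were also called after the correction (-1.11 and -1.503, limma adjusted p = 0.0195 and 0.000702), and the other 7 falls named here were not, with corrected changes from -0.95 in Fgd2 to -0.46 in AY036118. Both comparisons have a GC trend of the same sign and kidney transcripts on the ST-HSC side.

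The difference between the leukaemia and the normal contrast was tested as an interaction over 20 samples, and 245 of 12770 genes were called (1.92%), or 278 after the correction (2.27%). Of the genes called between the leukaemias, 338 were tested in this fit and 52 were called. The leukaemia samples that chose these genes also enter this fit, so the 52 are not independent of the choice. For Cd74 the interaction was -2.501 (limma adjusted p = 0.0457; corrected -2.56, limma adjusted p = 0.0432), while normal ST-HSC at 38.3 to 205 FPKM and MPP at 43.6 to 230.1 FPKM had a log2 change of -0.25 (limma adjusted p = 0.751). For Apoe it was -3.72 (limma adjusted p = 0.00230; corrected -3.72, limma adjusted p = 0.00270), the normal change being 1.498 (limma adjusted p = 0.000648), which is opposite in sign to that in the leukaemias. Gm15232, Ticam1, Bmyc and Clec4b1 were also called (1.73, -1.02, -1.76 and -2.17, limma adjusted p = 0.00414, 0.0235, 0.0425 and 0.00568), with corrected values of 1.58, -1.0003, -1.80 and -2.36, whereas the interaction did not pass for H2-Eb1 (-1.496, limma adjusted p = 0.252), H2-Aa (-1.68, limma adjusted p = 0.190) or Vcam1 (2.06, limma adjusted p = 0.127). In the platelet genes Gp9 and F2rl2 the interaction (-2.39 and -2.76, limma adjusted p = 0.0373 and 9.26e-05) came with log2 changes of 1.98 and 2.75 in the normal cells and -0.41 and -0.01 in the leukaemias.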

How the data were processed

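The authors deposited FPKM values per Ensembl gene, estimated with RSEM from amplified cDNA libraries, with the build mm9 in the submitters' processing notes; the annotation version was not given in the sources used here. Of 68 columns, 19 matched no sample label and were not used. For each fit, genes averaging 1 FPKM or more in its samples entered limma 3.58.1 (R 4.3.3; mean-variance trend, two-sided, Benjamini-Hochberg adjustment) on log2(FPKM + 1). The main fit held 9 samples, the normal fit 11 and the interaction fit 20. P-values measure only the spread between these samples. GC content, length and shared 31-base windows came from merged exons of GENCODE M1 on NCBIM37, found for 11589 genes, and the correction subtracted a lowess trend (span 0.3) of each sample's deviations. Identical gene rows were kept apart. Single values were compared by exact permutation over 84 splits.

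Genes were named by a rule: up to 10 rises and falls called in both fits with groups apart and under 20% of windows shared, up to 3 called each way in every list (or the 2 largest where none was called), and the 3 largest each way called as deposited only. Sfpi1, Myb, Gfi1, Hoxa9, Meis1, Cebpa, Csf1r and other genes outside the rule were named after their values were seen. The members, the 34 gene lists and the tests were chosen with earlier results of these data known; the kidney and liver lists were written after these values. Promoters were RefSeq's. Depth ratios came from 9392 low genes (34 of 36 sample pairs fitted). No counts were analysed, so no interval or floor was computed. A gene list and a few members of others are not reported here. Functions were tested on simulated data. Alternatives were the pseudocount, low-value filter, scaling, samples fitted, correction, replicate block and leaving out samples. Python 3.11.15, numpy 2.4.6, pandas 2.3.3 and matplotlib 3.10.9 were also used.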

Additional observations from a re-analysis of the deposited data

Results flagged for a closer look

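Single MPP:MA9 samples stood apart from the other 5 for 10 genes, by a gap over 0.625 of the group's range (Dixon's critical value for 6 samples at 95%). Chance alone marks about 1 in 20 sets of normally distributed values, and 82 sets were looked at. The gene values were FPKM and not logs, and skewed values can be marked more often. Replicate 2 was high for Apoe at 530.2 FPKM (next 164), for Ly6g at 212 FPKM (next 46.9), for Retnlg at 562 FPKM (next 189) and for Gp9 at 9.88 FPKM (next 2.13). Replicate 4 was high for Flt3 at 107 FPKM (next 33.9), and replicate 5 for Prdm16 at 4.58 FPKM (next 0.17) and Hdc at 19.1 FPKM (next 8.46). Replicate 6 was high for Irf7 at 14.4 FPKM (next 9.43) and Cd22 at 7.90 FPKM (next 3.04), and replicate 3 for Neat1 at 341 FPKM (next 156). The causes were not tested.

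The change between STHSC:MA9 and MPP:MA9 differed from that between ST-HSC and MPP, by the limma interaction test, for 8 of the named genes. These had an adjusted p below 0.05 and an interaction above 1 or below -1. The interaction was -2.50 for Cd74, 1.73 for Gm15232, -3.72 for Apoe, -1.02 for Ticam1, -1.76 for Bmyc, -2.39 for Gp9, -2.76 for F2rl2 and -2.17 for Clec4b1 on the log2 scale (limma adjusted p = 0.0457, 0.00414, 0.00230, 0.0235, 0.0425, 0.0373, 9.26e-05 and 0.00568). For Apoe and Gp9 an MPP:MA9 sample named above enters this value. Prdx1 and Mycbp passed the adjusted p at a smaller size (-0.955 and -0.999, limma adjusted p = 0.0367 and 0.0205). After the correction both were beyond the fold threshold as well (-1.08 and -1.12, limma adjusted p = 0.0205 and 0.0184), and so was Cbfa2t3 (-1.08, limma adjusted p = 0.0474).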

How the results depend on the processing

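Beside the 346 genes called between STHSC:MA9 and MPP:MA9, 224 were called with no filter on low values (27 higher, 197 lower), 18 with GC and length corrected, 18 with GC alone corrected (4 higher, 14 lower), 1226 with no fold threshold and 33 in a fit of all 19 leukaemias with the correction (6 higher, 27 lower; added after the data were seen). Leaving out 1 sample gave 126 to 617, and with the correction 1 to 303 (added likewise; 5, 30, 1, 6, 18 and 5 without MPP:MA9 replicates 1 to 6, and 303, 2 and 2 without STHSC:MA9 replicates 1 to 3). Median-ratio scaling, which moved the median of all genes from -0.07 to 0.00, gave 290 (66 higher, 224 lower); a pseudocount of 0.1 gave 468, the fit of all 19 leukaemias 350, genes of shared sequence left out 269 and identical rows counted once 339. With the replicate block limma called 0 genes as deposited (1571 at an unadjusted p below 0.05) and 0 corrected (945); only 3 numbers are shared, same-numbered samples had correlations of -0.241, -0.210 and -0.183, and the numbers do not pair the samples.

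For normal ST-HSC against MPP (446), a pseudocount of 0.1 gave 697 and the replicate block with the correction 247; median-ratio scaling turned 170 higher and 276 lower into 215 and 189, the correction into 214 and 110, and leaving out 1 sample gave 396 to 536. For the interaction (245), the replicate block gave 130 and leaving out 1 sample 116 to 596. Counted at 1 FPKM or more, the difference in genes detected was -148.8 (exact permutation test, adjusted p = 0.179). Leaving out 1 sample, the difference in genes above 0 was -492.5 to -346.5, in GC slope -0.395 to -0.363, in relative depth -0.462 to -0.307 and in mitochondrial share 1.27 to 3.00 percentage points; the GC slope and the genes above 0 did not pass without STHSC:MA9 replicate 1 or 2 (exact permutation test, adjusted p = 0.0714), where the test has few splits. These 4 differences kept their sign. Of 47 named genes called, 7 were not called in the fit of all 19 leukaemias. The causes of these shifts were not tested.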
